A study of Mus musculus with 6 samples.

Results

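The genes described here encode the proteins of both ribosomes of the cell, the cytosolic one and the mitochondrial one. Members were all genes in the deposited tables whose symbol starts with Rpl, Rps, Mrpl or Mrps followed by a digit, plus Rplp0, Rplp1, Rplp2 and Rpsa. Rps6k kinases and pseudogene symbols were left out. This gave 163 of 14608 genes, of which 85 were cytosolic (34 of the small and 51 of the large subunit) and 78 mitochondrial (29 and 49). Rps19bp1 meets the symbol rule although it encodes a binding partner of Rps19 and not a ribosomal protein.

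Sequenced RNA came from Treg cells (regulatory T cells, which hold immune responses in check), enriched for CD4 with magnetic beads from mouse spleen and then sorted as cells positive for CD4 and for the fluorescent protein YFP. The 6 libraries came from 3 genotypes with 2 mice each: wild type (WT), the Cdc42 knockout on 1 allele (Cdc42+/-, heterozygous) and the knockout on both alleles (Cdc42-/-, homozygous). Cdc42 is a small GTPase that controls the actin skeleton and cell polarity. The allele that carries YFP, the deleted exons, and the strain, age and sex of the mice are not given in the sources used here.

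A ribosome consists of a small subunit, which reads the messenger RNA, and a large subunit, which joins the amino acids. The cytosolic ribosome translates nearly all messages of the cell, and its proteins are needed in matched amounts. Their messages begin with a run of pyrimidine bases at the 5′ end (the terminal oligopyrimidine, or TOP, sequence), through which growth signals set their translation and stability together. The mitochondrial ribosome is built from nuclear-encoded proteins that are imported into mitochondria, and it translates the few messages of the mitochondrial genome, which encode subunits of the respiratory chain. T cells that leave the resting state make more of both kinds of ribosome.

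Levels are given as RPKM, reads scaled to the length of the gene and the total of the library. With 2 mice per genotype, p-values measure the spread between these libraries alone. Libraries held between 8556576 and 17796100 reads in genes, with the fewest in WT replicate 2. Treg markers (Foxp3, Il2ra, Ikzf2 and Ctla4) summed to between 455 and 652 RPKM in the 6 libraries, but did not move alike: in Cdc42-/- against WT 3 of the 4 had lower values and 1 a higher one (median log2 fold change -0.52), and Ikzf2 fell (-0.90, adjusted p 0.0311). Cdc42 itself stood at 166 and 161 RPKM in WT cells, 164 and 156 RPKM in Cdc42+/- cells, and 122 and 173 RPKM in Cdc42-/- cells, so the level of the whole gene did not mark the genotypes, which are known from the labels alone. Among markers of other cells, 12 myeloid markers summed to 1502 RPKM in Cdc42-/- replicate 2, against 25.7 to 57.5 RPKM in the other libraries. The 3 plasma cell markers summed to 11.0 and 14.1 RPKM in WT cells, 92.4 and 72.3 RPKM in Cdc42+/- cells, and 3.02 and 143 RPKM in Cdc42-/- cells. B cell markers stayed at or under 18.9 RPKM and CD8 markers at or under 10.6 RPKM in every library. Of 7 erythroid markers only 3 were among the deposited genes, and Hbb-bs, Hbb-bt, Hba-a1 and Hba-a2 were absent. The 3 summed to at most 0.918 RPKM in WT and Cdc42+/- cells and to 3.85 and 19.4 RPKM in Cdc42-/- replicates 1 and 2. The median variance of a gene between the libraries of a genotype (log2 scale) was 0.0132 for the WT pair, 0.00697 for the Cdc42+/- pair and 0.0465 for the Cdc42-/- pair. In bulk RNA, fewer cells of a type and less RNA per cell cannot be told apart.

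The sequences at the start of some members are shown first. Whether they bear on the values in the results that follow was not tested. RefSeq windows of GRCm38.p6, from 250 bases before to 50 bases after the start of a gene, were matched by gene ID for 134 of the 163 members (65 cytosolic and 69 mitochondrial). The oligopyrimidine letters CTCTTTCC, searched on the transcribed direction only, were found in 7 of 65 cytosolic windows (10.8%), in 1 of 69 mitochondrial windows (1.45%) and in 1.76% of the 27025 genes with a window. Stretches of 30 bases are printed 5′ to 3′ in the direction of the gene, with these letters in capitals, for 3 cytosolic members in which they lie at the start or within 30 bases after it.
Rpl28, chr7:4792954-4792983, plus strand: ctctcgtgtctCTCTTTCCgtctccggccg
Rpl18, chr7:45718061-45718090, plus strand: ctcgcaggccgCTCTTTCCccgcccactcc
Rpl35a, chr16:33056471-33056500, plus strand: ggcttgccttcCTCTTTCCgccatcttggc

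The letters CCGGAAGT are the core that ETS transcription factors such as GABPA bind. On either strand, they were found in 11 of 65 cytosolic windows (16.9%), 12 of 69 mitochondrial windows (17.4%) and 4.31% of all genes with a window. The core of the NRF1 motif, an exact run of 10 letters searched on either strand, was found in 2 cytosolic (3.08%) and 3 mitochondrial (4.35%) windows, and in 1.07% of all. Differences in these shares between the families were not tested, and a match, which may lie anywhere in the window, describes its letters only. The stretches below come from 3 cytosolic members with lower values in Cdc42-/- than in WT (of which only Rpl37 passed the test described later) and 3 mitochondrial members that rose, with the ETS letters in capitals. They were picked by these directions, from which nothing is read: the same letters were found in Rps27l, which had a higher value in Cdc42-/-, and in Mrpl43, Mrpl52 and Mrps27, which had lower ones.
Rps6, chr4:86857440-86857469, minus strand: ttaatctacgcCCGGAAGTaacgcccctct
Rps25, chr9:44407630-44407659, plus strand: cacccattgccCCGGAAGTactctctcgag
Rpl37, chr15:5116579-5116608, plus strand: accaagacccgCCGGAAGTagtttcctggg
Mrpl18, chr17:12916312-12916341, minus strand: actgaaaacgCCGGAAGTagggggctgcgg
Mrpl27, chr11:94653725-94653754, plus strand: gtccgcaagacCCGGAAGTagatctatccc
Mrps22, chr9:98601672-98601701, minus strand: aacctctcgagCCGGAAGTtgctctatcga

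In WT Treg cells the 2 families stood at very different levels. Of the 85 cytosolic members, 75 exceeded a mean of 100 RPKM in WT cells and 55 exceeded 1000 RPKM, up to 3156 ± 305 RPKM (SD, n = 2) for Rplp1, an acidic protein of the ribosomal stalk. Among the 78 mitochondrial members only Mrpl52 exceeded 100 RPKM, at 102 RPKM, and the lowest, Mrps25, stood at 2.40 RPKM. The median member of the cytosolic family was at 1208 and 1339 RPKM in the WT libraries, and that of the mitochondrial family at 19.5 and 20.1 RPKM. The genes were short, with a median counted length of 740 nt for cytosolic and 1066 nt for mitochondrial members. They were spread over 19 and 17 chromosomes by the RefSeq annotation. Rpl10, Rpl36a, Rpl39 and Rps4x were on the X chromosome.

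Summed over its members, the cytosolic family was highest in WT, intermediate in Cdc42+/- and lowest in Cdc42-/-, an order that the mitochondrial family did not show. Cytosolic members summed to 96518 and 107936 RPKM in WT cells, 87580 and 90732 RPKM in Cdc42+/- cells, and 58151 and 73397 RPKM in Cdc42-/- cells. As a share of the reads in genes this was 7.79% and 8.63% for the WT libraries, 7.03% and 7.28% for those of Cdc42+/-, and 4.73% and 5.95% for those of Cdc42-/-. The libraries of the 3 genotypes did not overlap in either measure. Mitochondrial members summed to 1793 and 1907 RPKM in WT cells, 1844 and 1835 RPKM in Cdc42+/- cells, and 1840 and 2368 RPKM in Cdc42-/- cells. Cdc42-/- replicate 2 lay well above the other libraries, which were between 1793 and 1907 RPKM. The ratio of the sums was 53.8 and 56.6 for the WT libraries, 47.5 and 49.5 for those of Cdc42+/-, and 31.6 and 31.0 for those of Cdc42-/-, which were close together although each sum alone differed between them. These sums are given as a description, with no test.

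**Figure D1:**
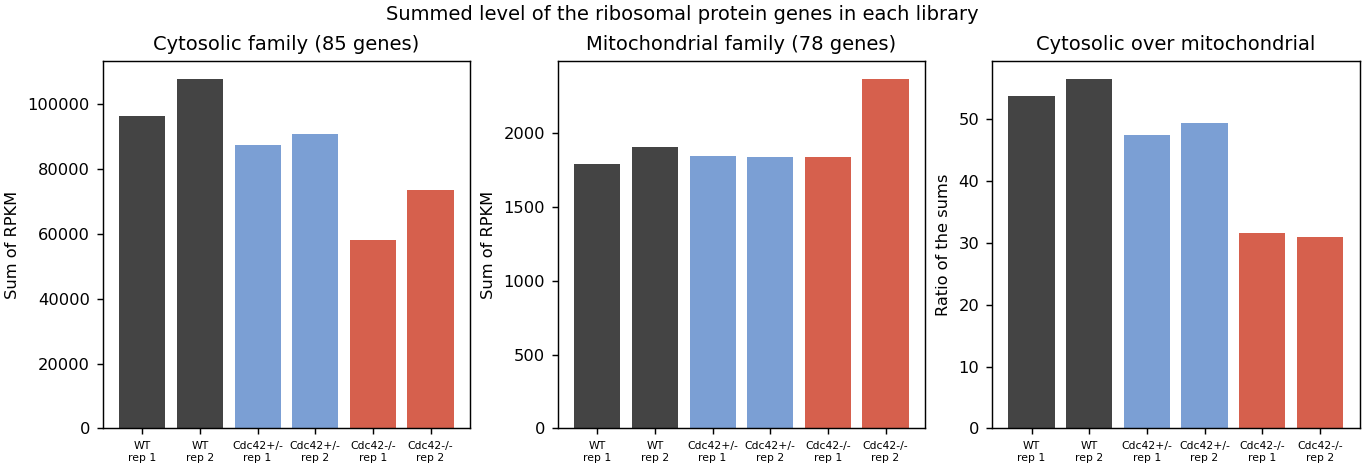
Bars show, for each of the 6 libraries, the RPKM summed over the 85 cytosolic members (left), over the 78 mitochondrial members (middle), and the ratio of both sums (right); colours mark the genotype. The cytosolic sum and the ratio step down from WT to Cdc42-/- (ratio 53.8 and 56.6 against 31.6 and 31.0), and the mitochondrial sum is highest in Cdc42-/- replicate 2, at 2368 RPKM.

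The comparison of Cdc42-/- with WT addressed what the loss of both alleles changes. Of the 84 cytosolic members tested (only Rpl10l had too low a mean), 33 passed an adjusted p of 0.05 in limma, and all 33 were lower in Cdc42-/-. Over all 12233 genes tested, 4.57% were called lower, 6.86% higher and 11.4% in either direction. The median log2 fold change of the family was -0.63, with the middle range of members between -0.78 and -0.37, against 0.01 for all genes. At an unadjusted p under 0.05 there were 69 members, beside 3589 of the 12233 genes, and 78 of 84 were lower by sign, beside 5989 of all genes. In 72 members the Cdc42-/- libraries lay below both WT libraries, which held for 27.1% of all genes, and in 3 they lay above.

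The number of members called ranged from 0 to 75 over the 15 alternatives. The median ranged from -0.48 to -0.79; in 5 of the 15 (only the compared genotypes fitted, replicate block, array weights, and either Cdc42+/- library left out) it had the same value as reported, since these do not change the fold changes. The 2 other filters on low values change only which members are tested. Of the 33 calls, only that of Rps15a remained when only WT and Cdc42-/- were fitted, or without WT replicate 1, Cdc42+/- replicate 1 or Cdc42+/- replicate 2, and none remained without WT replicate 2. Without Cdc42-/- replicate 1, 59 members were called (57 lower, where 15.4% of all genes were lower) with a median of -0.48, and without replicate 2, the library with the myeloid markers, 75 were called (74 lower, where 8.61% of all genes were lower) with a median of -0.79. In both fits the spread came from the WT and Cdc42+/- pairs alone (median variance 0.0132 and 0.00697, against 0.0465 for the Cdc42-/- pair). More genes of all kinds were then called, so calls kept there are no support for those reported. The authors' deposited table lists 45 cytosolic members as lower and 0 as higher at an adjusted p of 0.05, where 2.66% of its genes are lower, with a median log2 fold change of -0.69.

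**Figure D2:**
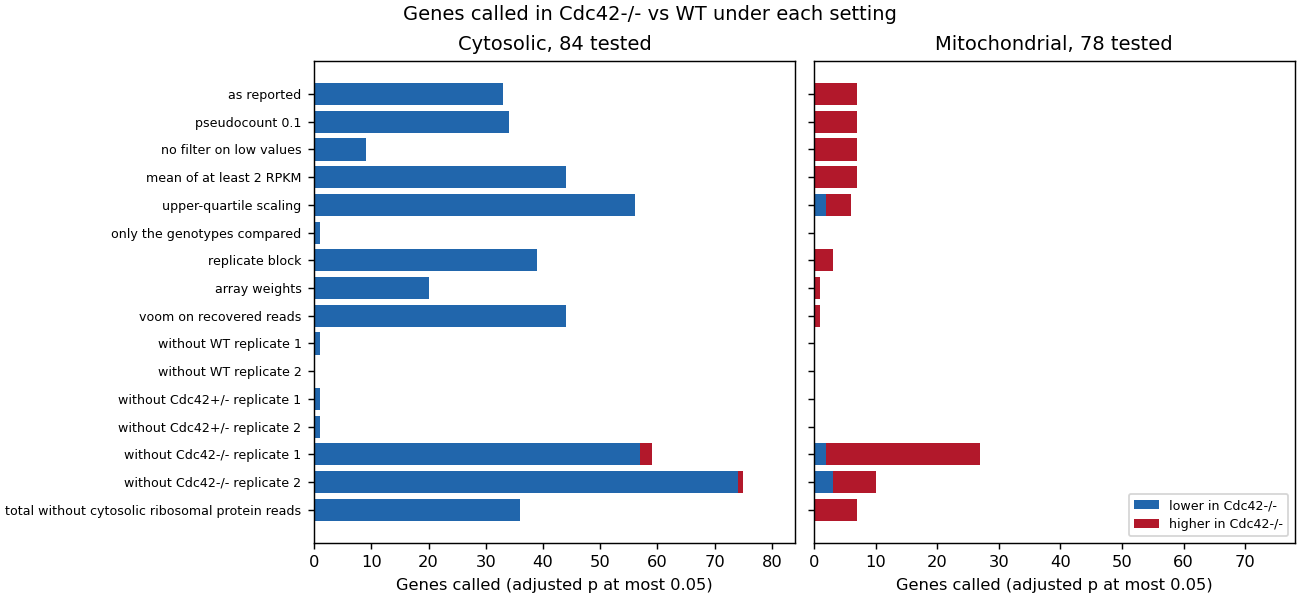
Bars count the members called at an adjusted p of 0.05 in Cdc42-/- against WT, split by direction, in the fit as reported and under 15 alternatives, for the cytosolic (84 tested) and mitochondrial (78 tested) family. Cytosolic calls were lower in Cdc42-/- apart from 2 without replicate 1 and 1 without replicate 2 of Cdc42-/-, while their number went from 0 to 75.

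The lowest log2 fold changes were found in Rps27, Rps15a, Rps24, Rpl37a and Rps15, of which Rpl37a belongs to the large subunit and the others to the small subunit. Rps15a, gene ID 267019, had levels of 154 and 175 RPKM in WT cells, 129 and 133 RPKM in Cdc42+/- cells, and 69.6 and 81.1 RPKM in Cdc42-/- cells. Both Cdc42-/- libraries lay below the rest, with a log2 fold change of -1.12 from WT to Cdc42-/- (SE 0.12, adjusted p 0.00431). It lost the call in 1 of 15 alternatives, without WT replicate 2 (adjusted p 0.0578). Its counted length of 5134 nt was the longest of the cytosolic family.

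Rps24, a small-subunit protein mutated in some families with Diamond-Blackfan anemia, stood at 1635 and 2016 RPKM in WT cells, 1429 and 1506 RPKM in Cdc42+/- cells, and 750.0 and 952 RPKM in Cdc42-/- cells (log2 fold change -1.10, SE 0.18, adjusted p 0.0158). Rps15 was at 1589.5 and 1753 RPKM in WT cells, 1483 and 1522 RPKM in Cdc42+/- cells, and 755 and 919 RPKM in Cdc42-/- cells (-1.0, SE 0.15, adjusted p 0.0128). For Rpl37a the values were 1378 and 1733, 1240.3 and 1309, and 624 and 860.0 RPKM in the same order (-1.08, SE 0.20, adjusted p 0.0248). These 3 genes had the same order of genotypes in every library, with Cdc42+/- nearer to WT than to Cdc42-/-. In the authors' deposited table their log2 fold changes against WT range between -1.05 for Rps15 and -1.15 for Rps24.

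Rps27 had the lowest value of all (-1.17, SE 0.25, adjusted p 0.0356) but rested on few reads, 29 and 21 for the WT libraries, 26 and 25 for those of Cdc42+/-, and 5 and 7 for those of Cdc42-/-. Such a level is far under that of its neighbours in the ribosome. Many near-identical processed copies of cytosolic ribosomal protein genes lie in the genome, and reads that match several places may be lost or split by the authors' counting, whose tool and settings are not given in the sources used here. The levels of Rps27 and of Rpl34 (0.422 to 1.37 RPKM over the 6 libraries) are therefore uncertain.

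By subunit, 16 of 34 small-subunit members were called lower (median -0.66) and 17 of 50 large-subunit members (median -0.57). The stalk proteins, which recruit translation factors to the large subunit, were spread over this range. Rplp2 fell (1226 and 1383 RPKM in WT cells, 718 and 889 RPKM in Cdc42-/- cells, log2 fold change -0.70, SE 0.16, adjusted p 0.0444). Rplp1, the member with the highest level, went from 2940.3 and 3372 to 1598 and 2119 RPKM, just short of the threshold (-0.77, SE 0.19, adjusted p 0.0548). Rplp0, the anchor of the stalk, had a smaller difference (1624 and 1659 against 1221 and 1465 RPKM, -0.30, SE 0.15, adjusted p 0.246).

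Rpl5 and Rpl11, which together with 5S rRNA bind Mdm2 when ribosome assembly is disturbed, both fell. Rpl5 went from 998 and 1133 RPKM in WT cells to 555 and 707 RPKM in Cdc42-/- cells (-0.76, SE 0.16, adjusted p 0.0346), and Rpl11 from 1500.1 and 1750.2 to 955 and 1121 RPKM (-0.65, SE 0.16, adjusted p 0.0494). Rps6, the small-subunit protein that S6 kinases phosphorylate, went from 1276 and 1399 to 785 and 964 RPKM (-0.62, adjusted p 0.0523). Rpsa, also known as a laminin receptor, had 1411 and 1418 RPKM in WT cells and 901 and 1181 RPKM in Cdc42-/- cells (-0.46, adjusted p 0.132). Rpl3 (-0.37, adjusted p 0.140) and Rpl4 (-0.48, adjusted p 0.0941), core proteins of the large subunit, were lower without passing. In all of these the Cdc42-/- libraries lay below both WT libraries.

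At the other end, Rps2 was nearly level: 1568 and 1602 RPKM in WT cells, 1448 and 1455 RPKM in Cdc42+/- cells, and 1290.1 and 1675 RPKM in Cdc42-/- cells (-0.11, SE 0.17, adjusted p 0.703). Rpl28 and Rpl41 (both -0.26) and Rpl36al (-0.22) were also close to WT. These 4 were singled out after their values were seen, apart from Rpl36al. In Rps2, Rpl41 and Rpl36al the Cdc42-/- libraries overlapped those of WT.

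Members were also compared by level. Among the 77 cytosolic members with a mean of at least 20 RPKM over all libraries, 76 were lower in Cdc42-/-, with a median of -0.65. The 1 exception was Rps27l. The 8 under 20 RPKM were Rpl10l, Rpl32l, Rpl34, Rpl37rt, Rpl39l, Rps19bp1, Rps27 and Rps4l, and 5 of the 7 tested were higher by sign. Over these 77 genes, which share their libraries and do not count as replicates, the log2 fold change had a Pearson r of -0.356 and a Spearman rho of -0.283 with the log2 WT level, and -0.0149 and 0.124 with the log2 length. In comparison, 457 genes outside both families had a mean of at least 100 RPKM, and of these 54 were called higher and 33 lower, with a median of 0.06.

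**Figure D3:**
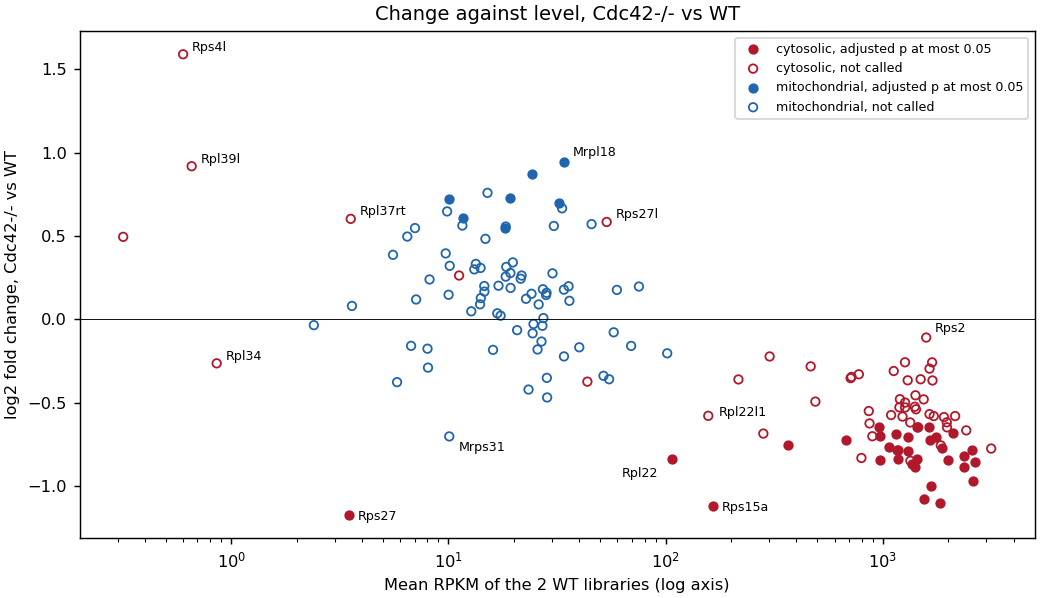
Each point is 1 tested member, placed by its mean RPKM in the 2 WT libraries (log axis) and its log2 fold change in Cdc42-/- against WT on the log2(RPKM + 1) scale; filled points passed an adjusted p of 0.05. The highly expressed cytosolic members lie below 0, the mitochondrial members lie on both sides of it, and Rps27l and a few members of very low level stand above it.

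Several cytosolic proteins have a second gene, and the values of such pairs are set side by side. Rps27l, which is known as a p53 target, was at 47.0 and 60.2 RPKM in WT cells, 47.6 and 44.3 RPKM in Cdc42+/- cells, and 64.7 and 99.4 RPKM in Cdc42-/- cells (0.58, SE 0.22, adjusted p 0.145). Its Cdc42-/- libraries lay above all others, opposite to Rps27. Rpl22, a protein with a known role in T cell development, fell from 100.0 and 115 RPKM in WT cells through 88.3 and 91.0 in Cdc42+/- to 51.9 and 68.6 RPKM (-0.83, SE 0.16, adjusted p 0.0239). Its paralog Rpl22l1 went from 156 and 158 through 130.3 and 114 to 93.1 and 118 RPKM (-0.58, SE 0.14, adjusted p 0.0533), where the last 2 genotypes overlapped.

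Rpl36a, on the X chromosome, had 715 and 880.2 RPKM in WT cells and 353 and 562 RPKM in Cdc42-/- cells (-0.83, SE 0.23, adjusted p 0.0738), whereas its paralog Rpl36al had 278 and 325 against 219 and 302 RPKM. Rpl7 (-0.57, adjusted p 0.0793) and Rpl7l1 (-0.37, adjusted p 0.160) were both lower without passing. Rpl39 went from 1194 and 1487 to 591 and 926 RPKM (-0.85, adjusted p 0.0719), while Rpl39l, whose protein is best known from the testis, stayed at most at 3.26 RPKM (0.92, SE 0.46, adjusted p 0.238). Rps4x (-0.67, adjusted p 0.0656) and Rpl10 (-0.50, adjusted p 0.184) were lower, and their paralogs Rps4l and Rpl10l were near 0. Rps4l was counted with 18 and 0 reads for the WT libraries, against 48 and 22 for those of Cdc42-/- (1.59, SE 0.47, adjusted p 0.0839), and Rpl10l had between 0 and 10 reads in any library. Rpl37rt (0.60) and Rpl32l (0.50) completed the highest values, both from low levels and neither called. Differences between paralogs were not tested.

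In the mitochondrial family the differences were smaller in the median and more often upward. Of 78 members, all tested, 7 (8.97%) were called in Cdc42-/- against WT and all 7 were higher, beside 6.86% of all genes called higher. The median log2 fold change was 0.17 against 0.01 for all genes. By sign 55 members were higher and 23 lower, beside 6244 and 5989 of the 12233 genes. The Cdc42-/- libraries lay above both WT libraries in 26 members and below them in 10, where 28.9% and 27.1% of all genes did so. The median rested on Cdc42-/- replicate 2, being -0.02 without that library and 0.34 without replicate 1. Replicate 2 was the highest library for 48 of 78 members. It is also the library in which the 12 myeloid markers summed to 1502 RPKM, and the part of other cells in the mitochondrial values was not tested.

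The 7 members called were Mrpl18, Mrpl54, Mrpl27, Mrps22, Mrpl20, Mrps11 and Mrps7. Mrpl18, gene ID 67681, which carries 5S rRNA toward mitochondria, had levels of 31.1 and 37.0 RPKM in WT cells, 40.2 and 39.2 RPKM in Cdc42+/- cells, and 57.8 and 76.0 RPKM in Cdc42-/- cells (0.95, SE 0.16, adjusted p 0.0175). It is the 1 mitochondrial member that the authors' deposited table lists as changed (log2 fold change 0.93, adjusted p 0.0296). Mrpl54 was at 28.0 and 20.7 RPKM in WT cells, 23.5 and 28.3 RPKM in Cdc42+/- cells, and 42.1 and 48.1 RPKM in Cdc42-/- cells (0.87, SE 0.18, adjusted p 0.0324). In both genes the Cdc42-/- libraries stood above the other 4, replicate 1 included.

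Mrpl27 had 18.6 and 19.8 RPKM in WT cells and 30.8 and 34.2 RPKM in Cdc42-/- cells (0.73, SE 0.15, adjusted p 0.0343). Mrps22, a small-subunit protein, had 8.99 and 11.0 RPKM in WT cells and 17.8 and 16.5 RPKM in Cdc42-/- cells (0.72, SE 0.15, adjusted p 0.0348). Mrps7 had 19.1 and 17.6 RPKM in WT cells and 26.8 and 27.6 RPKM in Cdc42-/- cells (0.55, SE 0.12, adjusted p 0.0346). The Cdc42-/- replicates were close to each other in these 3 genes. The calls were lost without any 1 WT or Cdc42+/- library and when only WT and Cdc42-/- were fitted. Without a Cdc42-/- library the spread came from the WT and Cdc42+/- pairs, which differed less. More genes of all kinds were then called, so calls kept there are no support. Mrpl18 alone remained with voom on the recovered reads and with array weights. Upper-quartile scaling gave 4 higher and 2 lower calls, with a median of 0.09.

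Further mitochondrial members went from values as high as Mrpl51 (0.76, adjusted p 0.0595) to values as low as Mrps31. Mrps31 was at 10.3 and 9.89 RPKM in WT cells and 4.83 and 6.98 RPKM in Cdc42-/- cells (-0.70, SE 0.21, adjusted p 0.0830). Mrps33 (-0.47), Mrpl53 (-0.42), Mrpl1 (-0.38) and Mrpl24 (-0.36) were the next lowest, and none was called. Mrpl12, which also binds the mitochondrial RNA polymerase, rested on replicate 2 (33.5 and 27.7 RPKM in WT cells, 34.6 and 59.5 RPKM in Cdc42-/- cells, 0.56, adjusted p 0.203). The 3 genes of the Mrps18 family had values of 0.24 (Mrps18a), 0.20 (Mrps18b) and 0.57 (Mrps18c), of which none passed. Mrpl3 (0.09), Mrps12 (0.26), Mrpl41 (0.50), Mrps27 (-0.29) and Mrps35 (-0.06) did not pass either.

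**Figure D4:**
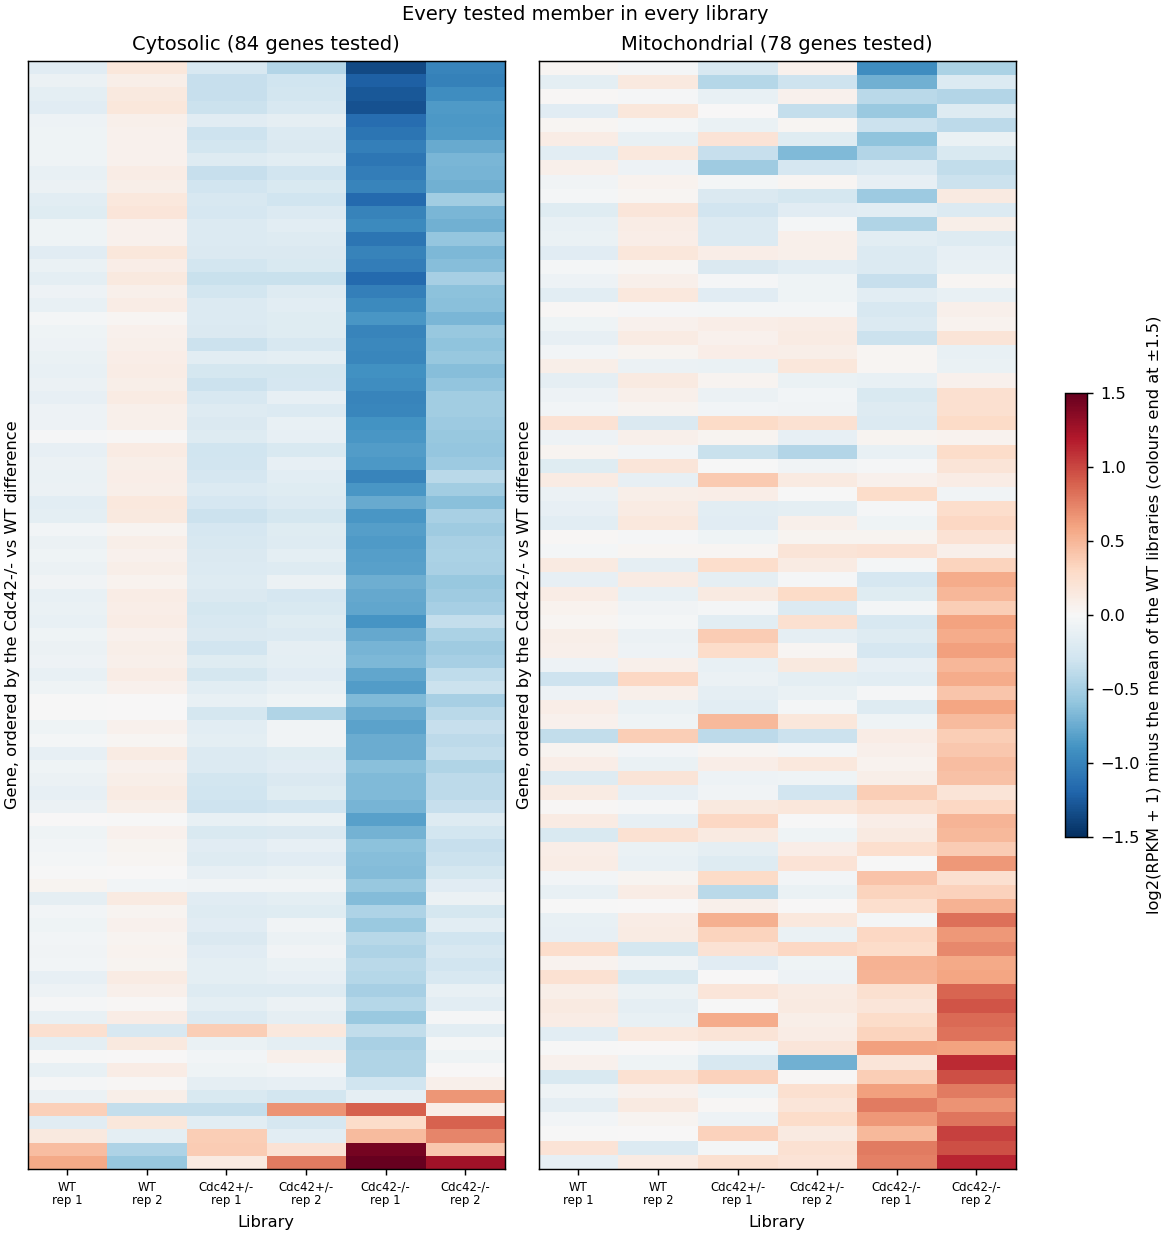
Rows are the 162 tested members, ordered within each family by their difference in Cdc42-/- against WT, and columns are the 6 libraries; the colour is log2(RPKM + 1) minus the mean of both WT libraries, blue for lower and red for higher. Blue deepens from Cdc42+/- to Cdc42-/- over nearly the whole cytosolic family, most in replicate 1, while red in the mitochondrial family is concentrated in Cdc42-/- replicate 2.

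The comparison of Cdc42+/- with WT addressed the loss of 1 allele and shares its WT libraries with the comparison of Cdc42-/- against WT. No gene was called in either family or among all 12233 genes (0%), and 529 genes, of which 2 were cytosolic (Rps15a and Rpl22l1) and 1 mitochondrial (Mrpl23), had an unadjusted p under 0.05. No member of either family was called under any of the 15 alternatives, voom on the recovered reads included, which called 1 gene in all. The values were small but mostly of 1 sign in the cytosolic family: 78 of 84 were lower, beside 5306 of the 12233 genes. The median was -0.20 against 0.03 for all genes (-0.11 without WT replicate 2, the library with the fewest reads). In 73 members both Cdc42+/- libraries lay below both WT libraries, where 17% of all genes did so. The lowest were Rpl22l1 (-0.36) and Rps27 (-0.34), and the highest were Rps4l (0.46) and Rpl39l (0.30). The authors' deposited table lists 6 cytosolic members as lower (Rpl32, Rpl36a, Rpl5, Rps15a, Rps18 and Rps19), where 0.561% of its genes are lower and 1.72% higher, and 0 mitochondrial members.

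Mitochondrial members were evenly split in Cdc42+/- against WT, with 39 higher, 39 lower and a median of 0.005. Of the 12233 genes 6926 were higher and 5306 lower, with a median of 0.03. Mrpl23 was the lowest, at 46.0 and 57.6 RPKM in WT cells and 40.2 and 32.0 RPKM in Cdc42+/- cells (-0.51, SE 0.17, adjusted p 0.939), followed by Mrps28 (-0.48). Mrpl47 (0.34) and Mrpl21 (0.33) were the highest.

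The comparison of Cdc42-/- with Cdc42+/- addressed the further loss of the other allele, and it shares its Cdc42-/- libraries with the comparison against WT. In the cytosolic family 3 of 84 members fell, among them Rps15a (-0.80, SE 0.12, adjusted p 0.0176) and Rps15 (-0.85, SE 0.15, adjusted p 0.0273), beside 3.54% of all genes called lower and 8.22% in either direction. At an unadjusted p under 0.05 there were 46 members, beside 3318 of the 12233 genes. By sign 77 of 84 were lower, beside 6254 of all genes, and the median was -0.45 (-0.26 without Cdc42-/- replicate 1) against -0.01 for all genes. In 70 members both Cdc42-/- libraries lay below both Cdc42+/- libraries, where 30.4% of all genes did so. In the mitochondrial family Mrps7 (0.67, SE 0.12, adjusted p 0.0243) and Mrpl18 (0.73, SE 0.16, adjusted p 0.0481) rose, 2 of 78, beside 4.68% of all genes called higher, with a median of 0.14 that was -0.01 without Cdc42-/- replicate 2. These 5 calls were lost without any 1 WT or Cdc42+/- library. Without a Cdc42-/- library the spread came from the WT and Cdc42+/- pairs, which differed less, so calls kept there are no support. Without Cdc42-/- replicate 1, 24 cytosolic and 25 mitochondrial members were called in either direction, where 34.8% of all genes were called. Without replicate 2 the counts were 63 and 4, where 14.9% of all genes were called. Rps27l (0.79) and Rps4l (1.13) were the highest cytosolic values, and Mrps28 (1.13) and Mrpl54 (0.78) the highest mitochondrial ones. Rps15 and Rps27 (-0.83) were the lowest cytosolic values, and Mrps31 (-0.61) and Mrpl53 (-0.40) the lowest mitochondrial ones.

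**Figure D5:**
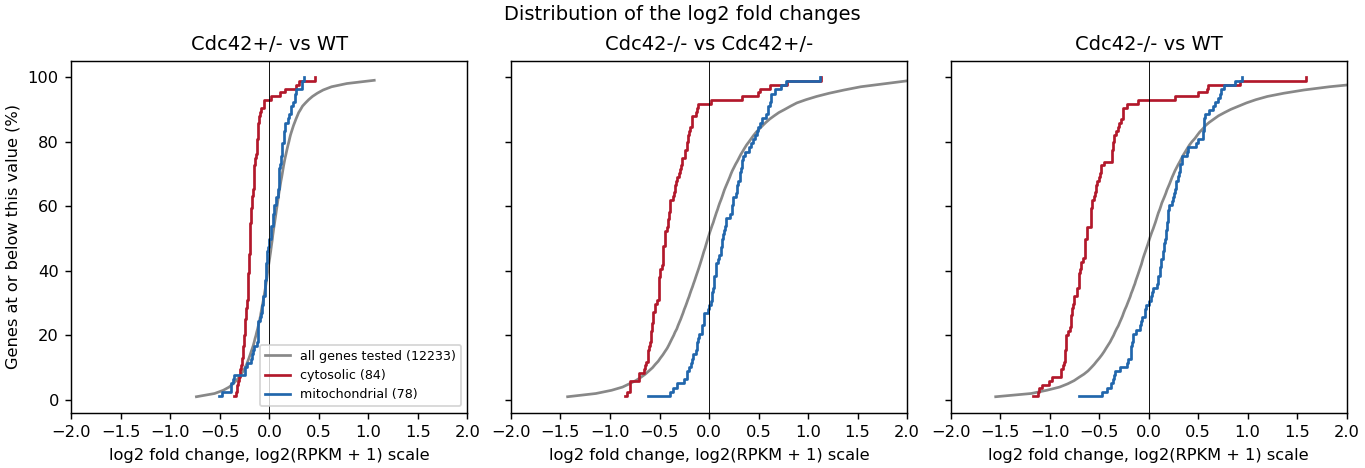
Curves give the percentage of genes at or below each log2 fold change (log2(RPKM + 1) scale) for the cytosolic family, the mitochondrial family and all genes tested, in 3 comparisons. Apart from its ends, the cytosolic curve lies left of the others in each panel (medians -0.20, -0.45 and -0.63 from left to right), and the mitochondrial median lies to the right of that of all genes in both panels with Cdc42-/-.

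Taking the 3 genotypes at once, 67 of the 84 cytosolic members (79.8%) had every WT library above every Cdc42+/- library and every Cdc42+/- library above every Cdc42-/- library, an order found in 5.11% of all genes and in 0 mitochondrial members. The reverse order was found in 0 cytosolic members, in 5 mitochondrial members (Mrpl18, Mrpl35, Mrpl40, Mrpl51 and Mrps23) and in 8.25% of all genes. Cdc42-/- replicate 1 was the lowest library for 78 of 84 cytosolic members, and WT replicate 2, the library with the fewest reads, the highest for 73. Both Cdc42-/- libraries also had less of the T cell markers Cd3d, Cd3e, Cd3g, Cd4 and Lck, which summed to 1116 and 886 RPKM, against 1547 to 1605 RPKM in the other libraries. Cd3d, Cd3e and Cd3g fell in Cdc42-/- against WT (3 of 5 markers, median -0.73), beside 4.57% of all genes called lower. Markers of dividing cells (Mki67, Top2a, Ccna2, Ccnb1, Cdk1 and Aurkb) had their lowest sum in WT and their highest in Cdc42-/-, with 28.4 and 30.5 RPKM in WT cells, 105 and 87.8 RPKM in Cdc42+/- cells, and 401 and 575 RPKM in Cdc42-/- cells. All 6 rose in Cdc42-/- against WT, beside 6.86% of all genes called higher. The part of these differences in the ribosomal protein values was not tested.

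Genes that work with the ribosome were counted from lists. Of 8 ribosomal proteins whose symbols the rule does not match, 0 were called in Cdc42-/- against WT, beside 11.4% of all genes, and 3 had an unadjusted p under 0.05, beside 3589 of the 12233 genes. Among these were the cytosolic Fau (-0.55, adjusted p 0.0524) and Rack1 (-0.38, adjusted p 0.119). The 5 mitochondrial ones were Dap3 (0.08), Ptcd3 (0.07), Chchd1 (0.41), Gadd45gip1 (0.30) and Aurkaip1 (-0.14).

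Elongation factors and other messages known to carry a TOP sequence were lower by sign in 14 of 14 cases, with a median of -0.36. None of the 14 was called in limma, and 7 had an unadjusted p under 0.05, where 3589 of the 12233 genes tested had one and 5989 were lower by sign. Tpt1, the translationally controlled tumor protein, had the lowest value (-0.75, SE 0.18, adjusted p 0.0507). Eef1b2 (-0.65, adjusted p 0.0796) and Eif3e (-0.53, adjusted p 0.0630) followed, while Eef2, the factor that moves the ribosome along the message, was level (-0.04, adjusted p 0.858).

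Genes that make rRNA and assemble the cytosolic ribosome had a median near that of all genes in Cdc42-/- against WT. Of 48 tested in Cdc42-/- against WT, where 11.4% of all genes were called, Eif6 rose (45.4 and 44.8 RPKM in WT cells, 64.0 and 62.8 RPKM in Cdc42-/- cells, 0.48, SE 0.10, adjusted p 0.0361), 0 fell, and the median was 0.04. Eif6 keeps new large subunits from joining too early. In Cdc42+/- against WT 40 of these 48 were lower by sign, beside 5306 of the 12233 genes, with a median of -0.15 against 0.03 for all genes. None was called in limma, and 3 had an unadjusted p under 0.05, beside 529 of all genes. In Cdc42-/- against Cdc42+/- Eif6 and Wdr12 (0.81, SE 0.15, adjusted p 0.0312), a factor of large-subunit maturation, rose. These were 2 of 48 (4.17%), beside 4.68% of all genes called higher. By sign 38 of 48 were higher, beside 5979 of the 12233 genes, with a median of 0.14 against -0.01 for all genes. At an unadjusted p under 0.05 there were 14, beside 3318 of all genes.

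Among 34 genes of mitochondrial ribosome assembly and translation tested, 1 (2.94%) was called in Cdc42-/- against WT. Over all genes 4.57% were called lower and 11.4% in either direction. The 1 called was Mterf3, which fell (24.6 and 25.2 against 15.4 and 15.2 RPKM, -0.67, SE 0.14, adjusted p 0.0346). Mterf3 is a repressor of mitochondrial transcription that also serves ribosome assembly. The median of this list was -0.10. Against Cdc42+/-, Mterf3 (-0.63, adjusted p 0.0483) and Mtg2 (-0.74, adjusted p 0.0441), a GTPase of large-subunit assembly, fell. These were 2 of 34 (5.88%), beside 3.54% of all genes called lower and 8.22% in either direction.

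Of 14 regulators, 1 (7.14%) was called in Cdc42-/- against WT, beside 11.4% of all genes in either direction and 4.57% lower. Mxd4, which opposes Myc at shared target genes, fell from 94.5 and 78.4 RPKM in WT cells to 41.2 and 29.9 RPKM in Cdc42-/- cells (-1.27, SE 0.17, adjusted p 0.00894). Myc, an activator of ribosome synthesis, was at 47.7 and 51.4 RPKM in WT cells, 35.9 and 35.7 RPKM in Cdc42+/- cells, and 52.6 and 46.1 RPKM in Cdc42-/- cells (adjusted p 0.968 against WT). Larp1, which binds TOP messages, was at 62.3 and 64.3 RPKM in WT cells, 56.5 and 51.4 RPKM in Cdc42+/- cells, and 86.1 and 77.9 RPKM in Cdc42-/- cells. It rose against Cdc42+/- (0.60, SE 0.11, adjusted p 0.0271) and did not pass against WT (0.37, adjusted p 0.0809). Of the 14 regulators, 2 (14.3%) were called against Cdc42+/-, 1 higher and 1 lower, beside 8.22% of all genes. Gabpa, a factor that binds the ETS letters printed above, and Nrf1 had log2 fold changes of 0.18 and 0.27 in Cdc42-/- against WT, neither called.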

How the data were processed

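The authors deposited 2 tables of 14608 genes, one for each Cdc42 genotype beside the same WT libraries. The unit of the library columns is not named in the file headers; the deposited values behave as RPKM, since they turn into whole reads for 100% of values (tolerance 1e-06) once multiplied by gene length and library total, and WT reads differed at 0 genes between the tables. The authors' group means (a normalized signal), fold changes (a linear ratio), log2 fold changes and p-values, raw and adjusted, stand beside them per the file headers and are cited only as the authors' deposited table. TopHat and mm10 are named in the submitters' processing notes; the counting tool, annotation, strand setting and the authors' test are not given in the sources used here.

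A mean of 0.5 RPKM or more was required (12233 genes), and these were tested in limma 3.58.1 (R 4.3.3) on log2(RPKM + 1), with a mean-variance trend, all 6 libraries in 1 fit, two-sided, and Benjamini-Hochberg adjustment at 0.05. A fold change on this scale understates the change of genes near 1 RPKM. The fit pools the spread of the genotypes, which differed, so p-values that involve Cdc42-/- are too small and those of Cdc42+/- against WT too large. The test was tested on simulated data: an initial limit on false calls was missed, and false calls were more frequent when genes, and still more when genotypes, kept their own spread. The limit was then applied only to data drawn with limma's own variance model, where it was met, so adjusted p-values near 0.05 for Cdc42-/- carry more false calls than the threshold states.

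Named genes were the 5 highest and 5 lowest members of each family in Cdc42-/- against WT, the 2 highest and 2 lowest in the other comparisons, and a list of stalk, landmark and paralogous proteins; genes of the other lists were named after their values were seen. Values of 2 single genes are not reported here; they stay in the counts and medians. Members and lists were chosen with earlier results of these data known. Alternatives were another pseudocount, other filters, upper-quartile scaling, a fit of the compared genotypes alone, a replicate block, array weights, voom on recovered reads, each library left out and, chosen after seeing the data, totals without cytosolic ribosomal protein reads.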

Additional observations from a re-analysis of the deposited data

How the results depend on the processing

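Under 15 alternatives, of which 7 leave the fold changes of Cdc42-/- against WT as they are by construction (both filters on low values, the compared genotypes alone, the replicate block, array weights and either Cdc42+/- library left out), no named member reversed its direction where it was called, and none of the 16 calls of named members was kept in every alternative. For Cdc42-/- against WT, 1398 genes were called, against 536 in the fit of the compared genotypes alone, 885 with array weights, 1330 with voom on the recovered reads and 259 to 4433 with a library left out. The 33 cytosolic calls became 9 with no filter on low values, 56 with upper-quartile scaling, 1 with the compared genotypes alone, 20 with array weights and 0 to 75 with a library left out, when the median ran from -0.79 to -0.48. The 7 mitochondrial calls became 0 with the compared genotypes alone, 1 with array weights, 1 with voom, and 0 to 27 with a library left out (median -0.0228 to 0.34); upper-quartile scaling gave 4 higher and 2 lower calls. For Cdc42+/- against WT, where 0 genes were called, there were 60 with the compared genotypes alone, 88 with array weights, 1 with voom and 0 to 76 with a library left out (cytosolic median -0.28 to -0.11, mitochondrial median -0.03 to 0.04); no member was called in any of them. For Cdc42-/- against Cdc42+/-, 1006 genes were called, against 276 with the compared genotypes alone and 0 to 4263 with a library left out. The 3 cytosolic calls became 1 with no filter, 8 with a 2 RPKM minimum, 14 with upper-quartile scaling, 0 with the compared genotypes alone, 14 with voom and 0 to 63 with a library left out (median -0.60 to -0.26). The 2 mitochondrial calls became 1 with no filter, 6 with a 2 RPKM minimum, 0 with the compared genotypes alone, 1 with totals free of cytosolic ribosomal protein reads, and 0 to 25 with a library left out (median -0.00925 to 0.36). Where a library was left out, the lone library of its genotype was assumed to vary like the others. The cause of these differences was not tested.

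Replicate numbers did not pair the libraries: deviations of same-numbered libraries correlated at 0.0177 (WT and Cdc42+/-), 0.202 (WT and Cdc42-/-) and -0.0343 (Cdc42+/- and Cdc42-/-). With a replicate block, 39 cytosolic and 3 mitochondrial members (Mrpl18, Mrpl20 and Mrpl27) were called in Cdc42-/- against WT, and 7 and 3 in Cdc42-/- against Cdc42+/-. Depth limits members with few reads: 8 cytosolic and 7 mitochondrial members had fewer than 100 reads in some library.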
